A study of Mus musculus with 8 samples.

Results

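The proteasome is the protease that breaks down proteins tagged with ubiquitin. Its core, the 20S particle, is a barrel of alpha rings, which gate the entrance, and beta rings, which hold the proteolytic sites. The 19S cap at the end of the barrel recognises ubiquitin, removes it and unfolds the substrate with a ring of ATPases. In muscle the system removes myofibrillar proteins during atrophy, and its subunit genes are known to rise together in wasting muscle. Transcripts of these genes were examined here in cells given ginsenoside Re or ginseng berries concentrate (GBC). The genes were chosen by name, as every listed gene whose symbol is Psma, Psmb, Psmc, Psmd, Psme or Psmf with a number, plus Adrm1 and Pomp. This gave 46 genes of the 52139 listed in both deposited tables. By role they were 7 alpha ring and 7 beta ring subunits, 3 immunoproteasome subunits, 6 cap ATPases, 12 other cap subunits, 3 cap assembly chaperones, 4 activators, 1 inhibitor, the 20S assembly chaperone gene Pomp, and 2 forms known from single tissues, Psma8 of testis and Psmb11 of thymus.

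The data were RNA sequencing profiles of 8 libraries labelled C2C12, an immortalised mouse myoblast line of wild type genotype. One table held 3 libraries of cells treated with ginsenoside Re, a ginseng saponin, and 3 of cells treated with DMSO, the solvent. The other table held 1 GBC library and 1 DMSO library. Doses and times are not given in the labels, and nothing in them says that libraries of a group came from separate cultures, so p-values measure only the spread between these libraries. Values were deposited as log2(TPM + 1), where TPM is a length-scaled share of each library's transcripts, so depth is unknown, and differences are on that log2 scale, where the added 1 shrinks the change of weakly expressed genes. In bulk RNA, fewer cells of a type and less RNA per cell cannot be told apart. The listed TPM summed to 704657, 707385 and 743269 in the Re libraries and to 716589, 642180 and 700100 in their DMSO libraries, and to 479938 in the GBC library and 403442 in its DMSO library. Over all genes the median difference was 0.11 for Re and 0.32 for GBC. After median-of-ratios scaling, which sets the typical gene of each library to the same level, it was 0.00046 for Re and -0.07 for GBC. The myoblast genes Myod1, Myf5 and Cdh15 were listed at 0 in both the GBC library and its DMSO library, while Thy1, a mesenchymal surface gene, was at 22.1 and 23.75 TPM there. In the 6 libraries of the Re table Myf5 was at 30.2 to 34.2 TPM and Thy1 at 0 to 0.08 TPM. Other mesenchymal markers did not all go the way of Thy1. Pdgfra was at 9.84 TPM in GBC and 5.85 TPM in its DMSO library, against 1.85 to 3.07 TPM in the Re table. Pdgfrb went the other way, at 3.26 and 1.78 TPM, against 13.4 to 16.15 TPM. Col1a1 was at 46.6 and 10.9 TPM, on both sides of the 12.9 to 20.03 TPM of the Re table. Dcn was at 0.57 TPM or less in each library. The 6 myoblast markers examined summed to 1.8 TPM in the GBC library and 2.06 TPM in its DMSO library, and to 200.15 to 224.1 TPM in the Re table. The GBC pair therefore lacks defining transcripts of the myoblast that its label names, and levels set across the tables are descriptions.

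Averaged over the 6 libraries treated with Re or DMSO, 42 of the 46 genes reached 1 TPM, and the same 42 did in the GBC pair. The highest was Psmb6, which encodes the caspase-like catalytic subunit of the beta ring, at 332, 329 and 345 TPM in the Re libraries, against 323, 275 and 308 TPM in the DMSO libraries. Psmb3, a structural beta subunit, followed at 246, 221 and 223 TPM in Re, against 255, 165 and 205 TPM in DMSO. Psmc3, a cap ATPase, was next at 197, 206 and 221 TPM in Re, against 179, 191 and 202 TPM in DMSO. The lowest of the 42 were not subunits of the mature particle but Psmd9 and Psmd10, chaperones of cap assembly, and Psmf1, which encodes the inhibitor PI31. Psmd9 was at 11.6, 11.1 and 11.97 TPM in Re, against 12.6, 11.45 and 10.8 TPM in DMSO, and Re and DMSO overlapped. Psmf1 was at 21.6, 24.45 and 22.02 TPM in Re, against 21.96, 16.4 and 21.9 TPM in DMSO. In TPM, which is per length, the 14 constitutive core genes spanned a 4.45-fold range of mean levels in this table, with Psma2 lowest at 71.6 TPM, and the 18 cap genes other than chaperones a 3.22-fold range, with Psmd11 lowest at 61.9 TPM.

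The 46 genes together held 0.661% ± 0.0146 of the listed TPM in the Re libraries and 0.635% ± 0.0162 in their DMSO libraries (SD, n = 3 each). In the GBC pair the share was 0.453% in the GBC library and 0.462% in the DMSO library. The TPM of the 18 cap genes other than chaperones and of the 14 core genes were summed. The cap sum was 0.978 ± 0.0505 of the core sum in Re and 0.987 ± 0.0398 in DMSO (SD, n = 3 each). These near-equal sums are over unequal gene numbers. By mean level in the 6 libraries, the median gene was at 111 TPM in the cap and 144 TPM in the core. In the GBC pair the cap sum was 0.671 of the core sum in the GBC library and 0.559 in the DMSO library. Both values of the pair lay below the range of the Re table, 0.92 to 1.03. The order of the 42 genes by level was alike in both tables, with a Spearman rho of 0.771 between the mean of the 6 libraries and that of the pair, given as a description over genes.

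**Figure D1:**
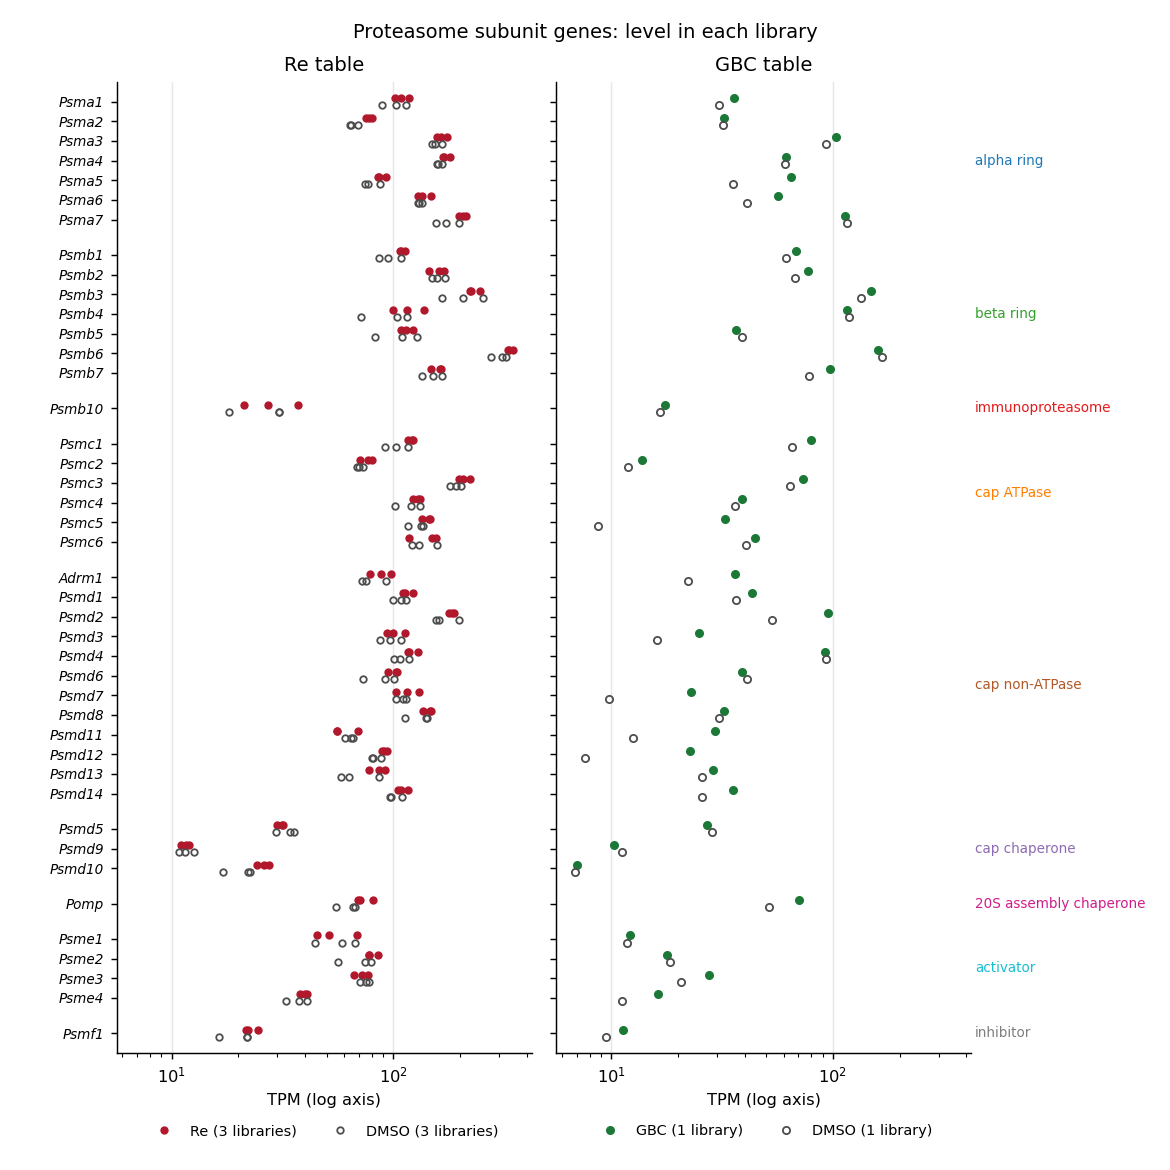
Level of each of the 42 measured proteasome genes in TPM on a log axis, with 1 point per library: Re (filled red) and DMSO (open) in the Re table on the left, GBC (filled green) and DMSO (open) in the GBC table on the right. Re and DMSO points lie close together for nearly every gene, while in the GBC table Psmc5, Psmd7, Psmd11 and Psmd12 show the widest gaps, with DMSO at 7.61 to 12.6 TPM.

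None of the 42 genes passed the threshold between Re and DMSO. In limma, with Benjamini-Hochberg adjustment over all 11967 genes tested, 0 of the 42 and 0 of all genes had an adjusted p under 0.05, a background of 0.0%, and the smallest adjusted p of a proteasome gene was 0.687. Before adjustment 2 proteasome genes, Psma2 and Psmd10, had p under 0.05, as did 6.23% of all genes. Without DMSO replicate 1 the number was 10, with 0 called, where 13.8% of all genes had such a p. Limma without a trend also called 0 and gave 2, where 6.12% of all genes did, and limma with robust variances called 0 and gave 2, where 6.08% did. Values in Re were nominally above those in DMSO for 36 of the 42, where 77.5% of all genes were, and the median difference was 0.13. After median-of-ratios scaling 24 of the 42 were above, where 50.1% of all genes were, with a median of 0.01. The largest difference in either direction was 0.32, or 1.25-fold. The 95% confidence interval of a proteasome gene reached 0.24 to either side at the median over the 42, and 36 of the 42 intervals ended below a difference of 0.5.

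The Re libraries lay wholly above the DMSO libraries in 6 of the 42 genes, where 13.7% of all genes did so, and wholly below in 0, where 1.27% did. The 6 were Psma2, Psma4, Psmb6, Psmd10, Psmd12 and Pomp. After median-of-ratios scaling 2 did, Psma2 and Psmb6, where 5.28% of all genes did. On that scale Psmd5 lay wholly below, where 5.0% of all genes did. DMSO replicate 2 held the lowest of the 6 values in 29 of the 42 genes, where it held the lowest in 50.6% of all genes, and after scaling in 14 of the 42, where it did in 22.1%. Leaving out a library can only add genes that lie wholly above or below, so the 6 genes had to stay in each such count. Without DMSO replicate 2 no gene was added to the 6 wholly above, where 16.9% of all genes lay wholly above. Psmd5 then lay wholly below, where 4.8% of all genes did, and the median over the 42 was 0.05. The number wholly above was 21 without DMSO replicate 1, where 34.0% of all genes were, 10 without DMSO replicate 3, where 20% were, and 13 without Re replicate 1, where 24.0% were.

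Among alpha ring genes, Psma2 had the smallest p. It was at 75.1, 77.4 and 79.8 TPM in Re, against 69.05, 64.3 and 63.8 TPM in DMSO. Every Re library was above every DMSO library. The difference was 0.23 with a 95% interval of 0.05 to 0.42 and an adjusted p of 0.687 in limma, and 0.12 after median-of-ratios scaling. Psma7 was at 213, 206 and 198 TPM in Re, against 199, 155 and 173 TPM in DMSO. Its groups overlapped, since Re replicate 3 lay just below DMSO replicate 1, and the difference was 0.24 with an interval of -0.01 to 0.48. Psma6 had the smallest difference of the ring, 0.06, at 134.0, 129 and 149 TPM in Re, against 131, 129 and 134 TPM in DMSO. The other 4 differed by 0.08 to 0.15, and 7 of 7 alpha genes had a difference above 0, or 3 of 7 after scaling.

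In the beta ring, Psmb6 was wholly higher in the Re libraries, with a difference of 0.15, an interval of -0.05 to 0.36 and an adjusted p of 0.687 in limma. After median-of-ratios scaling its difference was 0.04. Psmb1, a structural subunit, was at 108, 107 and 113 TPM in Re, against 108.5, 86.05 and 94.6 TPM in DMSO, and the groups overlapped. Its difference was 0.19 with an interval of -0.05 to 0.42. Psmb5, the chymotrypsin-like catalytic subunit that is the target of bortezomib, was at 122, 114 and 109 TPM in Re, against 128, 82.45 and 109.7 TPM in DMSO. Here DMSO replicate 1 was the highest and DMSO replicate 2 the lowest of the 6 libraries. The difference was 0.13, with an interval of -0.23 to 0.48, and -0.05 without DMSO replicate 2. Psmb7, the trypsin-like catalytic subunit, differed by 0.08, with an interval of -0.16 to 0.31. Psmb4, a structural subunit, had the largest difference of the ring, 0.28, and the widest interval, -0.15 to 0.72, at 137, 115.03 and 99.3 TPM in Re, against 115.06, 71.7 and 104 TPM in DMSO. Psmb2 was the 1 beta gene with a difference below 0, at -0.01.

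Interferon replaces the 3 catalytic subunits with immunoproteasome forms, encoded by Psmb8, Psmb9 and Psmb10. Only Psmb10 was measured above 1 TPM in these libraries, at 37.0, 21.3 and 27.2 TPM in Re, against 30.7, 18.1 and 30.4 TPM in DMSO. The groups overlapped over most of their range, and Psmb10 had the largest relative spread of the 42 genes, with a coefficient of variation of 27.8% in Re and 27.2% in DMSO. Its difference was 0.11, with an interval of -0.46 to 0.68 and an adjusted p of 0.875 in limma. Psmb8 was at 0.14, 0.1 and 0 TPM in Re and listed at 0 in the 3 DMSO libraries. Psmb9 was at 0, 0.39 and 0.15 TPM in Re, against 0, 0.17 and 0.07 TPM in DMSO. Psmb8 stood at 0% to 0.115% of the level of Psmb5 in the Re libraries and at 0% in DMSO. Psmb9 stood at 0% to 0.119% of Psmb6 in Re and at 0% to 0.0619% in DMSO. Psmb10 reached 22.6%, 13.15% and 18.4% of the level of Psmb7 in Re, against 18.5%, 13.5% and 20.1% in DMSO. The log2 ratio of Psmb10 to Psmb7 averaged -2.46 ± 0.38 in Re and -2.50 ± 0.288 in DMSO (SD, n = 3 each), with an exact two-sided permutation p of 1, in a design whose smallest exact p is 0.1. The same test was run on the ratios of Psmb8 and Psmb9, but its p-values are not read here. Both genes lie below the added 1 in the 6 libraries.

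Genes that act with the immunoproteasome were taken as a list of MHC class I and interferon genes, of which 6 of 9 were measured in the Re table. None passed the threshold, and the median of their differences was 0.15. H2-D1 and H2-K1, which encode the heavy chains that present peptides, differed by 0.16 and 0.23. Of 6 leukocyte markers 1 reached 1 TPM in each library of the Re table, Cd68, with Ptprc and Adgre1 listed at 0, and the 6 summed to 2.61 to 3.02 TPM in Re and 1.25 to 2.18 TPM in DMSO.

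The ATPase ring of the cap unfolds substrates. Psmc1 was at 116, 121 and 122 TPM in Re, against 116, 91.4 and 102 TPM in DMSO, where Re replicate 1 and DMSO replicate 1 had the same value. Its difference was 0.22 with an interval of -0.02 to 0.46 and an adjusted p of 0.687 in limma. Psmc5 was at 135, 146 and 145 TPM in Re, against 133, 117 and 136 TPM in DMSO, which overlapped, with a difference of 0.14 and an interval of -0.07 to 0.35. Psmc6 had the smallest difference, 0.04, with an interval of -0.28 to 0.36, and was negative after scaling at -0.07. The 6 ATPase genes had a median difference of 0.13, with 6 of 6 above 0, or 4 of 6 after scaling.

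Among the other cap subunits, Psmd13 had the largest difference, at 86.5, 91.4 and 77.6 TPM in Re, against 85.9, 57.9 and 63.1 TPM in DMSO. DMSO replicate 1 lay inside the Re range and the other DMSO libraries below it. The difference was 0.32 with an interval of -0.03 to 0.66 and an adjusted p of 0.687 in limma. Psmd4, a ubiquitin receptor, was at 116, 129 and 117 TPM in Re, against 118, 107 and 101 TPM in DMSO, and differed by 0.15 with an interval of -0.06 to 0.37. Adrm1, another ubiquitin receptor, was at 78.3, 87.8 and 97.7 TPM in Re, against 92.96, 71.9 and 75.4 TPM in DMSO, and differed by 0.14. Psmd14, the deubiquitinase of the cap, differed by 0.12, with an interval of -0.09 to 0.32. Psmd11 was the 1 gene of these 12 with a negative difference, -0.08, at 55.8, 55.8 and 69.3 TPM in Re, against 60.35, 64.4 and 65.5 TPM in DMSO. Its interval of -0.33 to 0.17 includes 0.

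The chaperones of assembly had differences of both signs. Psmd10, which encodes gankyrin, was at 25.98, 27.4 and 24.2 TPM in Re, against 22.6, 17.1 and 22.2 TPM in DMSO. Each Re value was above each DMSO value, with a difference of 0.32, an interval of 0.03 to 0.61 and an adjusted p of 0.687 in limma. Psmd5 was at 31.45, 31.9 and 29.8 TPM in Re, against 35.8, 29.5 and 34.1 TPM in DMSO, with a difference of -0.09, or -0.20 after median-of-ratios scaling, where its adjusted p was 0.963. Psmd9 differed by -0.01. Pomp, the chaperone of 20S maturation, was at 81.4, 70.65 and 69.3 TPM in Re, against 66.05, 55.1 and 67.0 TPM in DMSO, with no overlap, and differed by 0.23 with an interval of -0.02 to 0.49. Psmg4, an assembly chaperone outside the name rule, was at 32.3, 35.0 and 34.1 TPM in Re, against 28.6, 24.8 and 27.1 TPM in DMSO. Its difference was 0.32 with an interval of 0.11 to 0.54, an unadjusted p of 0.00834 and an adjusted p of 0.687 in limma, and it had no overlap after scaling too, where the difference was 0.21. The list of assembly factors outside the rule also held Sem1, which encodes a subunit of the cap. Sem1 differed by 0.26, or 0.14 after scaling, with an interval of 0.002 to 0.51 as deposited and an adjusted p of 0.687 in limma. Its Re and DMSO values overlapped. The 8 measured genes of this list had a median difference of 0.19, and 0 passed the threshold.

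The activators open the gate of the core without ATP. Psme1 and Psme2 encode the subunits of the PA28 ring and are known as interferon-induced genes. Psme1 was at 45.2, 51.1 and 68.25 TPM in Re, against 44.5, 58.8 and 67.4 TPM in DMSO, and the ranges coincided, with a difference of -0.05 and an interval of -0.49 to 0.38. Psme2 was at 85.2, 77.6 and 77.7 TPM in Re, against 79.3, 74.4 and 56.01 TPM in DMSO, with a difference of 0.21 and an interval of -0.10 to 0.52. Psme2b, a gene with a sequence close to Psme2, was at 0.8 to 1.5 TPM, and reads that the authors' counting could split between such copies make the level of Psme2 uncertain. Pseudogenes of Psma5, Psmb5, Psmb6 and Psmb7 were at 1.35 TPM or less in each of the 8 libraries. Psme3, the nuclear activator, differed by -0.06, Psme4, which encodes PA200, by 0.09, and the inhibitor gene Psmf1 by 0.18, with intervals that include 0.

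**Figure D2:**
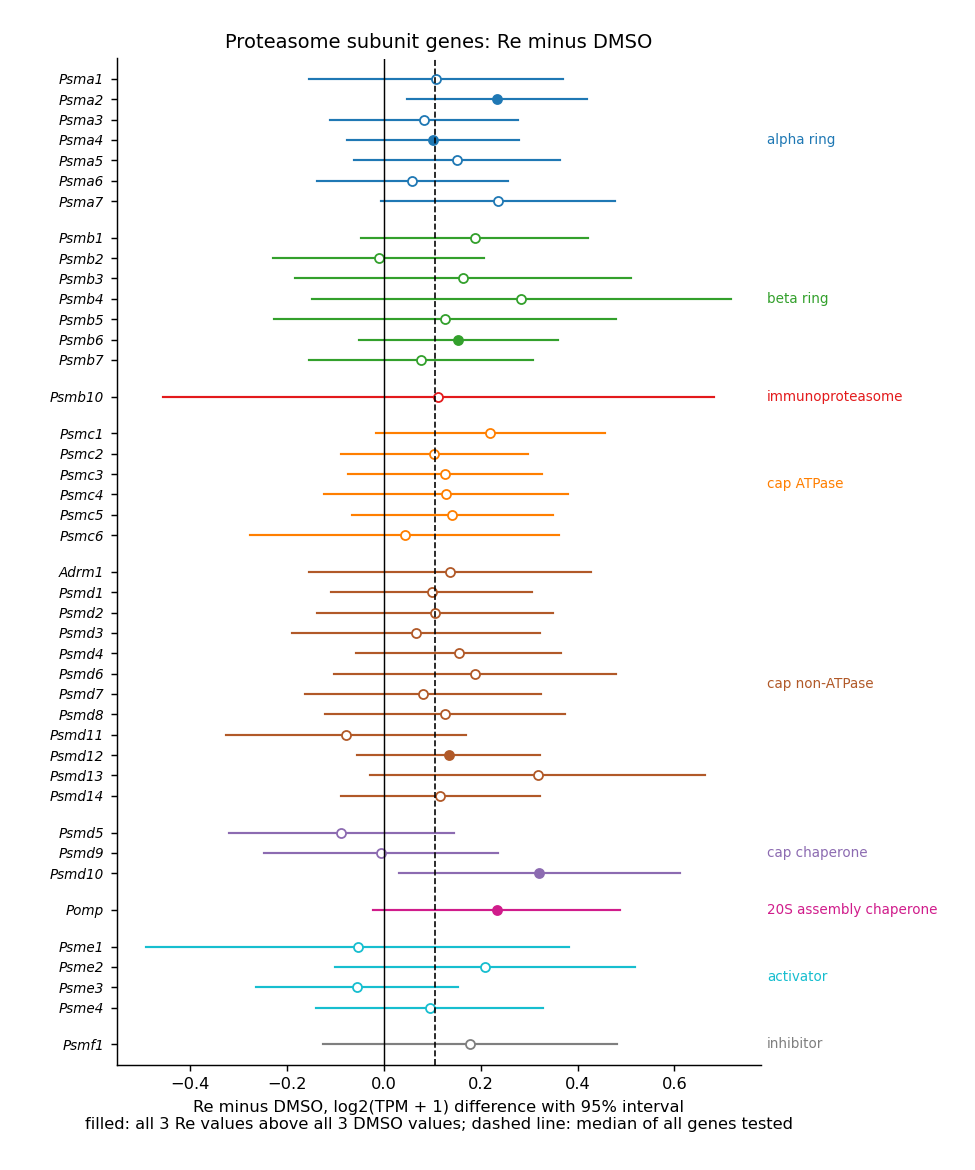
Difference between the means of 3 Re and 3 DMSO libraries on the log2(TPM + 1) scale for each measured proteasome gene, with its 95% interval from limma; filled points mark genes whose 3 Re values all exceed the 3 DMSO values. Most points sit near the dashed line at 0.11, the median over all genes, and only the intervals of Psma2 and Psmd10 exclude 0.

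Genes that control or serve the proteasome were examined as lists chosen by role, and none passed the threshold in limma. Nfe2l1 encodes the transcription factor NRF1, which is known to raise the subunit genes when proteasome activity is low. It was at 78.4, 85.65 and 98.65 TPM in Re, against 100.7, 88.3 and 80.7 TPM in DMSO, and the groups overlapped fully, with a difference of -0.04. The 9 measured genes of the NRF1 list had a median of 0.11, equal to that of all genes within 0.0051. In that list Zfand5 lay wholly above in Re as deposited, where 13.7% of all genes did, with a difference of 0.18. After median-of-ratios scaling its values overlapped, with a difference of 0.06. The 10 ubiquitin shuttle and segregase genes had a median of 0.04, and as deposited the Re and DMSO values of each overlapped. After median-of-ratios scaling 3 of them, Nploc4, Ubqln2 and Ubqln4, lay wholly below in Re, where 5.0% of all genes did. The 5 deubiquitinases and ligases that bind the proteasome had a median of 0.07.

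In the GBC pair 4 cap genes had higher values in the GBC library by at least 1 on the log2 scale, while most core genes differed by less than the typical gene. With 1 library per group there is no replicate check and no test. As deposited, 4 of the 42 genes had a difference of at least 1 at a mean of at least 5 TPM, all 4 higher in the GBC library and all 4 in the cap, where 4.97% of all genes were higher by that rule. Lower by that rule were 0 of the 42 and 0.241% of all genes. The 4 were the ATPase gene Psmc5 and the non-ATPase genes Psmd12, Psmd11 and Psmd7, of which Psmd7 was given its statistics after its value was seen. Values were above those in DMSO for 33 of the 42, where 88.8% of all genes were. The median difference of the 42 was 0.18, which is 0.14 below that of all genes averaging 1 TPM or more, and 29 of the 42 lay below that median. The gap was smaller at a mean of at least 10 TPM, with medians of 0.19 for proteasome genes and 0.27 for all genes. After median-of-ratios scaling the median of the 42 was -0.28 and 10 of 42 were above 0, where 42.0% of all genes were. The scaled median of all genes was -0.07 at a mean of at least 1 TPM and -0.13 at 5 TPM.

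Psmc5 was at 32.75 TPM in the GBC library, against 8.72 TPM in the DMSO library, a difference of 1.80, or 1.36 after median-of-ratios scaling. Psmd12, a scaffold subunit of the cap lid, was at 22.6 TPM in GBC, against 7.61 TPM in DMSO, a difference of 1.46, or 1.02 after scaling. Psmd11, another lid scaffold subunit, was at 29.3 TPM in GBC, against 12.55 TPM in DMSO, a difference of 1.16, or 0.72 after scaling. Psmd7, the partner of the deubiquitinase Psmd14, was at 22.9 TPM in GBC, against 9.82 TPM in DMSO, a difference of 1.15, or 0.71 after scaling. After scaling 2 of the 42 genes, Psmc5 and Psmd12, kept a difference of at least 1, where 1.27% of all genes were higher by that rule. Both also did after rescaling to equal sums, where 2.8% of all genes were. Of 5 fibroblast or mesenchymal markers, 4 reached 1 TPM in each library, and the 5 summed to 81.9 TPM in GBC, against 42.5 TPM in DMSO. Most of that gap was Col1a1, at 46.6 TPM in GBC, against 10.9 TPM in DMSO. Pdgfra was at 9.84 TPM in GBC, against 5.85 TPM in DMSO, and Pdgfrb at 3.26 TPM in GBC, against 1.78 TPM in DMSO. Thy1, given above, and Dcn, at 0.06 TPM in GBC, against 0.19 TPM in DMSO, had the lower value in GBC. The part of these markers in the differences was not tested.

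The 4 genes were chosen by a rule that uses the pair's DMSO library, so a low level there is partly the choice itself, and their levels across the tables are given as a description. The mean of the 3 DMSO libraries of the Re table was 14.8 times the level in the pair's DMSO library for Psmc5, 11.1 times for Psmd7, 10.9 times for Psmd12 and 5.05 times for Psmd11. It was 2.85 times at the median of the 42 genes and 2.29 times at the median of 6533 genes. Against the GBC library it was 3.93, 4.77, 3.67 and 2.16 times for Psmc5, Psmd7, Psmd12 and Psmd11, and 2.27 times at the median of the 42. In the Re table the same 4 genes differed between Re and DMSO by 0.14 for Psmc5, 0.13 for Psmd12, -0.08 for Psmd11 and 0.08 for Psmd7.

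**Figure D3:**
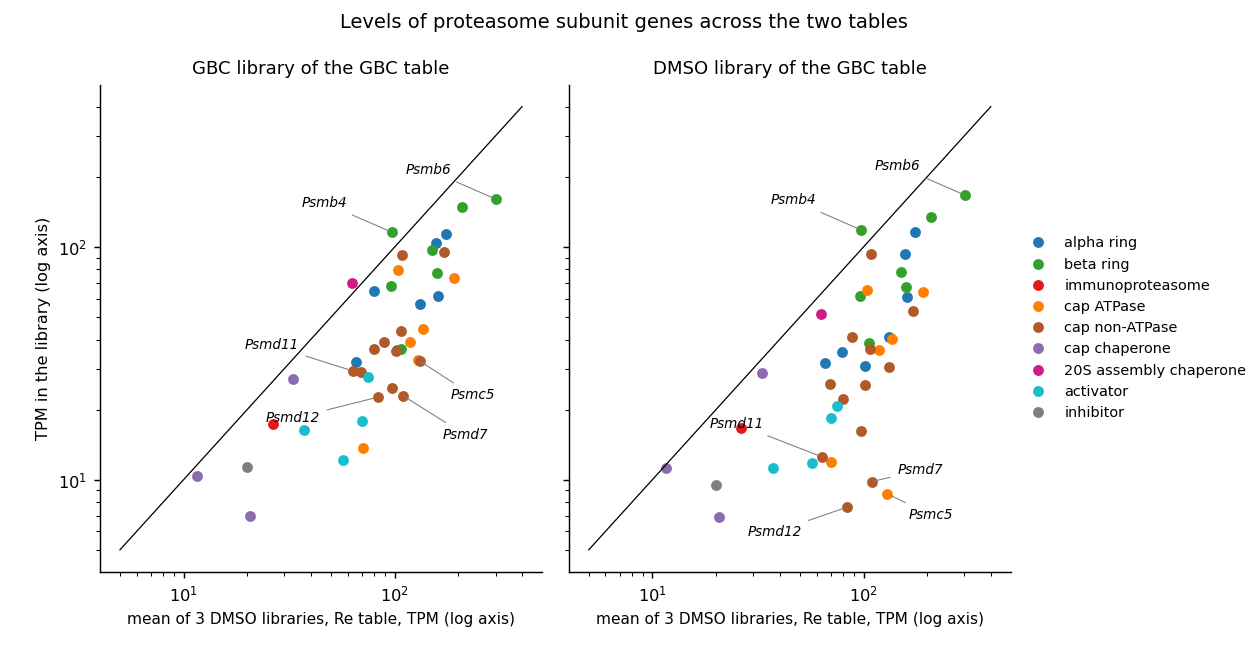
Level of each measured proteasome gene in the GBC library (left) and the DMSO library (right) of the GBC table, against its mean in the 3 DMSO libraries of the Re table, in TPM on log axes; the line marks equal levels and colours mark the roles. Psmc5, Psmd7 and Psmd12 lie farthest below the line in the DMSO library of the pair, at 8.72, 9.82 and 7.61 TPM, and nearer to the other genes in the GBC library.

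The promoters of the genes with the largest GBC differences are shown because the genes of the complex are known to be co-regulated through a shared promoter element, the antioxidant response element that NRF1 binds. Sequences are from RefSeq on GRCm38.p6, which held a window for 39 of the 46 genes but none for Psmd7, and each gives the 250 bases before a start site, 5′ to 3′ on the gene's strand. Capitals mark matches on either strand to TGACNNNGC, the core of that element, or to CCAAT, the box bound by NF-Y, and no match of one overlaps one of the other here. They are Psmc5 at chr11:106255935-106256184 on the plus strand, Psmd12 at chr11:107479278-107479527 on the plus strand, Psmd11 at chr11:80428365-80428614 on the plus strand and, as a beta ring gene that had no such difference, Psmb5 at chr14:54617996-54618245 on the minus strand.
Psmc5: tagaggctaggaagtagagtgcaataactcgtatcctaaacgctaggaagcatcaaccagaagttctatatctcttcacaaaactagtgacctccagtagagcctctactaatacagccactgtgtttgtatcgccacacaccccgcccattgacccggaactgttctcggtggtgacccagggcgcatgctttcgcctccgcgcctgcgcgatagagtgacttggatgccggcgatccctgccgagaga
Psmd12: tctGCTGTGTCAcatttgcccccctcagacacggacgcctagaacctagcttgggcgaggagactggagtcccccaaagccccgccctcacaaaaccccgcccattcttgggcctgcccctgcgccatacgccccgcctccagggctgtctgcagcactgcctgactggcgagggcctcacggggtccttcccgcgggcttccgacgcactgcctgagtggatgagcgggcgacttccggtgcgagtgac
Psmd11: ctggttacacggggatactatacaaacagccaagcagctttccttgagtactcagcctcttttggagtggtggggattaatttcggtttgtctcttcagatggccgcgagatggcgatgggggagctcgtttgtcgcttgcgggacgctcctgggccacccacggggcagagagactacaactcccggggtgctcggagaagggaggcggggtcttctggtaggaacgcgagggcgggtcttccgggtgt
Psmb5: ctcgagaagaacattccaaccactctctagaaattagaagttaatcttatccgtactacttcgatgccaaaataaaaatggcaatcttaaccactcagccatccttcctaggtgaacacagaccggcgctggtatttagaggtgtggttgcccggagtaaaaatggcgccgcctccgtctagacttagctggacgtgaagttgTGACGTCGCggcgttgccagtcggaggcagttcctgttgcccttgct

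Psmd12 holds 1 match to TGACNNNGC at the far end of its window, 247 bases before the start site, and Psmb5 holds 1 at 47 bases before it. No match to either motif lay in the 250 bases shown for Psmc5 and Psmd11. Over full windows of 300 bases, 50 of them after the start site, TGACNNNGC was present in 7 of 42 windows of proteasome genes, or 16.7%, and in 12.4% of all 32851 windows. The 7 genes were Adrm1, Psmb5, Psmb6, Psmc6, Psmd9, Psmd12 and Psme4, which differed between GBC and DMSO by -0.11 for Psmd9 to 1.46 for Psmd12. CCAAT was present in 15 of 42 windows, or 35.7%, and in 37.4% of all windows. Both shares lie near those of all windows, and a match is a description of letters.

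No alpha or beta ring gene had a difference of at least 1, and 12 of the 14 lay below the median of all genes averaging 1 TPM or more. Their median difference was 0.14 as deposited and -0.32 after median-of-ratios scaling. Psma5 had the largest difference of the core, 0.85, at 64.5 TPM in GBC, against 35.3 TPM in DMSO. Psma6 followed at 56.8 TPM in GBC, against 41.1 TPM in DMSO, a difference of 0.46. After scaling the difference was 0.39 for Psma5 and -0.002 for Psma6. The smallest of the alpha ring was Psma7 at 114 TPM in GBC, against 115 TPM in DMSO. In the beta ring the catalytic genes Psmb5 and Psmb6 were at 36.5 and 160.2 TPM in GBC, against 38.75 and 167 TPM in DMSO, with differences of -0.08 and -0.06. Psmb7, the remaining catalytic gene, was at 97.3 TPM in GBC, against 78.1 TPM in DMSO, a difference of 0.31. Psmb2 was at 77.1 TPM in GBC, against 67.5 TPM in DMSO, a difference of 0.19. Psmb4 was the 1 gene of the 42 whose level in the DMSO library of the pair, 118 TPM, was above its mean in the DMSO libraries of the Re table, 97.0 TPM.

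For the 12 non-ATPase cap genes the median difference was 0.52, which is 0.20 above that of all genes, and 0.07 after median-of-ratios scaling, where it was 0.14 above. Psmd2, a scaffold of the cap base, was at 95.1 TPM in GBC, against 53.2 TPM in DMSO, a difference of 0.83. Adrm1 was at 36.3 TPM in GBC, against 22.3 TPM in DMSO, a difference of 0.68, and Psmd3 at 24.8 TPM in GBC, against 16.2 TPM in DMSO, a difference of 0.59. Psmd4 and Psmd6 differed by -0.01 and -0.07. The ATPase genes other than Psmc5 differed by 0.10 for Psmc4 to 0.28 for Psmc1. The 3 cap chaperones Psmd5, Psmd9 and Psmd10 differed by -0.08, -0.11 and 0.02, and their median lay 0.40 below that of all genes.

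Psmb10 was at 17.4 TPM in GBC, against 16.7 TPM in DMSO, a difference of 0.06, Psmb9 at 1.12 TPM in GBC, against 0.79 TPM in DMSO, and Psmb8 at 0.05 TPM in GBC, against 0.03 TPM in DMSO. Psmb10 stood at 17.9% of Psmb7 in GBC and 21.3% in DMSO. Psme4 was at 16.3 TPM in GBC, against 11.2 TPM in DMSO, a difference of 0.51, and Psme3 at 27.7 TPM in GBC, against 20.7 TPM in DMSO, a difference of 0.40. Psme1 and Psme2 differed by 0.04 and -0.04. Pomp was at 70.2 TPM in GBC, against 51.7 TPM in DMSO, a difference of 0.43, and Psmf1 at 11.3 TPM in GBC, against 9.48 TPM in DMSO, a difference of 0.23. After median-of-ratios scaling the difference was 0.07 for Psme4, -0.05 for Psme3, -0.03 for Pomp and -0.19 for Psmf1.

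**Figure D4:**
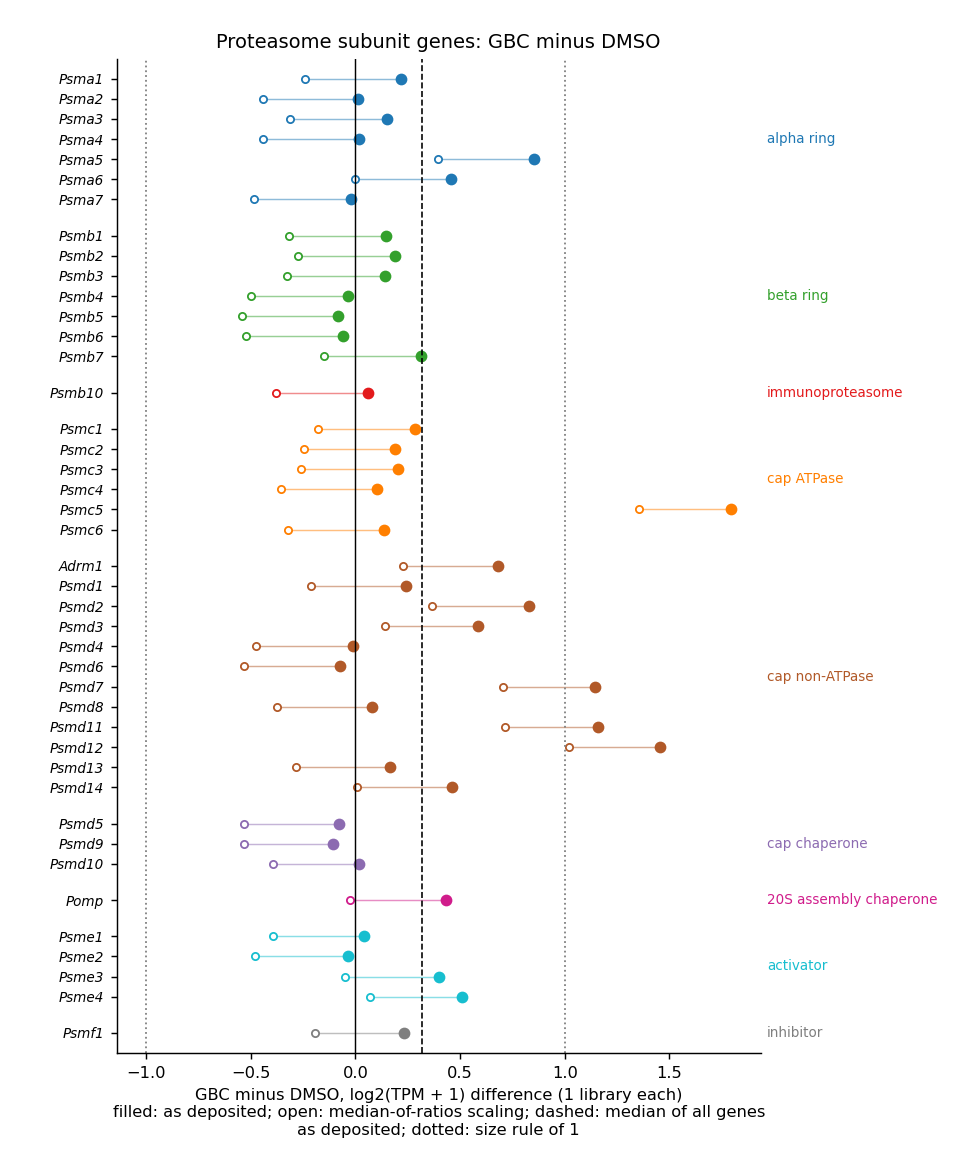
Difference between the single GBC and DMSO libraries on the log2(TPM + 1) scale for each measured proteasome gene, as deposited (filled) and after median-of-ratios scaling (open); the dashed line is the median of all genes as deposited, 0.32, and dotted lines mark a difference of 1 either way. Psmc5, Psmd12, Psmd11 and Psmd7 lie beyond the dotted line as deposited, while most core genes lie left of the dashed line.

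Among genes around the proteasome, Vcp, the segregase that pulls ubiquitinated proteins from complexes, was at 60.7 TPM in GBC, against 28.8 TPM in DMSO, a difference of 1.05, or 0.59 after median-of-ratios scaling. All 10 ubiquitin shuttle and segregase genes were above 0, with a median of 0.52, which is 0.20 above that of all genes. Ube3c, a ligase that binds the proteasome, was at 7.17 TPM in GBC, against 2.97 TPM in DMSO, a difference of 1.04, or 0.66 after scaling, and Uchl5, a deubiquitinase of the cap, at 7.26 TPM in GBC, against 3.87 TPM in DMSO, a difference of 0.76. Nfe2l2, which encodes NRF2, was at 28.65 TPM in GBC, against 16.01 TPM in DMSO, a difference of 0.80, and Nfe2l1 at 19.6 TPM in GBC, against 14.4 TPM in DMSO, a difference of 0.42. After scaling the difference was 0.37 for Uchl5, 0.35 for Nfe2l2 and -0.02 for Nfe2l1. In the list of assembly factors outside the rule, which includes Sem1, Ecpas was at 33.9 TPM in GBC, against 20.5 TPM in DMSO. Its difference was 0.70, or 0.25 after scaling. The other 7 genes of that list differed by -0.05 to 0.40, or by -0.48 to -0.01 after scaling. The 6 ubiquitin and E1 genes had a median of 0.05, which is 0.27 below that of all genes, with Rps27a lowest at -0.18.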

How the data were processed

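Per the labels, total RNA of 8 libraries was sequenced after a TruSeq preparation. The submitters' processing notes name STAR, RSEM and the builds GRCh38 and GRCm39 without settings, and the sources used here do not give the role of each. The authors deposited log2(TPM + 1) per Ensembl gene in 2 tables, taken as normalised separately, so tests and differences stayed within a table, and levels and ratios set across the tables are descriptions. For Re against DMSO, limma 3.58.1 (R 4.3.3; lmFit, eBayes with trend, two-sided, Benjamini-Hochberg threshold 0.05) was fitted to all genes averaging 1 TPM or more, and the step was tested on simulated data. GBC against DMSO had 1 library each, so a size rule was used, a difference of at least 1 at an average of 5 TPM or more, with medians over genes averaging 1 TPM. Summaries and figures were made with Python 3.11.15, pandas 2.3.3 and matplotlib 3.10.9. The genes, lists and tests were chosen with earlier results of these data known. By rule, any proteasome gene could be named with its values, and statistics went to the genes of each class with the smallest p, the smallest difference or, for GBC, the largest differences, to the highest and lowest levels and to catalytic subunits. The intervals of Psmb4, Psmd14 and Psme1 and the GBC value of Psmd7 were added after their values were seen. TPM keeps no depth, so no counting interval is given. Motifs were sought on both strands of RefSeq windows (GRCm38.p6). Alternatives were other pseudocounts, filters, scalings and limma settings, a block by replicate number and leaving out single libraries. Paaf1 was not analysed here.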

Additional observations from a re-analysis of the deposited data

How the results depend on the processing

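No proteasome gene was called for Re under any of the 17 alternatives run. Over all genes the number called was 2, 1 and 7 when Re library 1, 2 or 3 was left out, 3, 6 and 0 when DMSO library 1, 2 or 3 was, and 0 in the other alternatives. Whether the replicate numbers pair the libraries is not settled here, since correlations of deviations from means of 3 libraries cannot decide it. Same-numbered Re and DMSO libraries correlated at 0.163, 0.0771 and 0.0168 in their deviations from group means. Re replicates 1 and 2 each correlated best with the DMSO library of the same number. Re replicate 3 correlated best with DMSO replicate 2, at 0.0945. The replicate block gave 0 calls over all genes, with 810 at an unadjusted p under 0.05, 4 of them proteasome genes.

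Scaling moved the medians. For Re, the core median was 0.0262 after median-of-ratios scaling, 0.0729 after rescaling to equal sums, 0.0484 without mitochondrially encoded genes and 0.0398 after quantile normalization, and ran from 0.0659 to 0.2108 with 1 library left out. The cap median, here over 21 genes with the 3 chaperones, was 0.0125 after median-of-ratios scaling. For GBC, in the same order of the 4 scalings, the medians were -0.3213, -0.1054, -0.0632 and -0.1115 for the core, -0.2455, -0.0441, -0.003 and -0.0468 for the cap and -0.2806, -0.0679, -0.0259 and -0.1115 for all 42. The median of activators and inhibitor was -0.1948 after median-of-ratios scaling and -0.1695 after quantile normalization, and Psmb10 was at -0.3818 after median-of-ratios scaling. Under each of the 4 scalings 2 proteasome genes, in place of 4, passed the size rule. Over all genes 115, 208 and 128 passed after median-of-ratios, equal sums and quantile, and 218 at a mean of 10 TPM or more, in place of 346. The spread used to judge GBC medians was that of the Re table.

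Small Re differences changed sign. In the order of the 4 scalings Psma6 was -0.0546, -0.008, -0.0326 and -0.0234 and Psmc6 was -0.0699, -0.0232, -0.0478 and -0.0453. Psmb7 was -0.0374 after median-of-ratios scaling and -0.0152 without mitochondrially encoded genes, and Psme4 was -0.0164 after median-of-ratios scaling and -0.0064 after quantile normalization. With 1 library left out, Psma6 ran from -0.0003 to 0.1032, Psmb10 from -0.1289 to 0.2971, Psmb2 from -0.0575 to 0.0534, Psmb5 from -0.045 to 0.2681, Psmb7 from -0.0022 to 0.1479 and Psmc6 from -0.0343 to 0.1658. The Re minus DMSO log2 ratio ran from -0.1368 to 0.2397 for Psmb10 over Psmb7, from -0.1593 to 0.1539 for Psmb8 over Psmb5 and from -0.1754 to 0.0899 for Psmb9 over Psmb6. With a pseudocount of 0.1 it was 0.6259 for Psmb8 over Psmb5 and 0.3178 for Psmb9 over Psmb6. With 1 added these 2 ratios mostly follow their denominators, since Psmb8 and Psmb9 lie below 1 TPM. The causes were not tested. Depth is unknown, so precision rests on 3 libraries a group for Re and is not known for GBC.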
